A study of Mus musculus with 40 samples.

Results

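The genes described here are *Bdh1*, *Oxct1*, *Acat1*, *Slc16a1*, *Slc16a7*, *Slc16a3* and *Bsg*, which encode 3 mitochondrial enzymes of ketone body use, 3 monocarboxylate transporters and a chaperone protein of monocarboxylate transporters. They were chosen by name for these roles, with earlier results of these data known, and they are 7 of the 47643 Ensembl genes counted. Ketone bodies are made in the liver when carbohydrate is scarce and reach the brain in the blood. β-Hydroxybutyrate and acetoacetate cross the blood-brain barrier and cell membranes through the proton-linked transporters MCT1 (*Slc16a1*), MCT2 (*Slc16a7*) and MCT4 (*Slc16a3*), which also carry lactate and pyruvate, and the membrane glycoprotein basigin (*Bsg*) brings MCT1 and MCT4 to the cell surface. Inside mitochondria, *Bdh1* oxidizes β-hydroxybutyrate to acetoacetate, *Oxct1* activates acetoacetate with coenzyme A, and *Acat1* splits the product into acetyl-CoA.

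The question was whether transcripts of these steps differed in the brains of mice that carried gut microbes from children with refractory epilepsy taken before (pre-KD) or during (post-KD) a clinical ketogenic diet. Wild-type germ-free Swiss Webster mice, which the methods describe as females of 6 to 8 weeks, were colonized with stool that 1 of 10 donors gave before or during the diet, and both groups ate the same control diet, so that no mouse was fed a ketogenic diet. Hippocampus and frontal cortex were collected on day 4 after colonization. RNA of 6 mice of a cohort was pooled for each library, which gave 10 pre-KD and 10 post-KD libraries per region, 40 in all, with the cohort as the replicate and no view of the spread between mice of 1 pool.

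The libraries held 1140756 to 1947416 counts for the hippocampus and 1188447 to 2095352 for the frontal cortex, and 0 pairs of libraries were identical. At this depth 3 counts, the number that a count of 0 allows, were worth 1.496 to 2.83 CPM (counts in 1000000 counts of a library). In all 8 libraries of donors 9 and 10 the Y-linked genes *Ddx3y*, *Eif2s3y*, *Kdm5d* and *Uty* summed to 79.0 to 179 CPM, against 0 to 15.8 CPM in the other 32 libraries, although the methods name female mice. These cohorts stood in both conditions and both regions in equal number, and the members' comparisons between conditions and between regions are also given without them. The regional labels were borne out by most markers. *Zbtb20*, *Prox1*, *C1ql2* and *Spink8*, of the hippocampal list, differed by -5.14 to -0.73 on the log2 scale in the frontal cortex against the hippocampus, and the cortical genes *Lamp5* and *Rorb* were 1.33 and 0.57 higher. The cortical gene *Fezf2* went the other way, with a log2 difference of -0.88. Each of these 7 genes passed the adjusted threshold of 0.05 in edgeR.

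All 7 genes were detected, at levels that spanned a wide range. Per kilobase of merged exons, *Bsg* stood highest, at 100.3 ± 20.7 CPM per kb in hippocampal libraries and 110.4 ± 16 in frontal cortical ones (mean ± SD, n = 20 each). *Oxct1* followed at 67.2 ± 11.1 and 73.3 ± 11.4 CPM per kb. *Acat1*, *Bdh1* and *Slc16a1* formed a middle group, with 17.5 ± 6.99, 9.63 ± 5.96 and 6.07 ± 4.15 CPM per kb in the hippocampus and 10.98 ± 3.87, 10.5 ± 3.13 and 6.19 ± 3.40 in the frontal cortex. The remaining pair was near the limit of detection, *Slc16a7* at 0.42 ± 0.66 and 0.69 ± 0.69 CPM per kb and *Slc16a3* at 0.22 ± 0.60 and 0.39 ± 0.52. *Oxct1* exceeded *Acat1* in 20 of 20 libraries of each region and *Bsg* exceeded *Oxct1* in 18 of 20 hippocampal and 20 of 20 frontal cortical libraries. *Slc16a1* exceeded *Slc16a7* in 19 of 20 hippocampal and 20 of 20 frontal cortical libraries. The other neighbours did not separate beyond their spread, since *Acat1* exceeded *Bdh1* in 16 of 20 hippocampal libraries but in 9 of 20 frontal cortical ones, *Bdh1* exceeded *Slc16a1* in 15 of 20 in each region, and *Slc16a7* exceeded *Slc16a3* in 10 of 20 and 14 of 20. The labels name a full-length library kit, whereas the resource list of the study names a kit that reads the 3' ends of transcripts, for which length should not be divided out. Without that division *Oxct1* had more counts than *Bsg* in 18 of 20 hippocampal and 19 of 20 frontal cortical libraries, so the order of the upper pair depends on the scale.

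**Figure D1:**
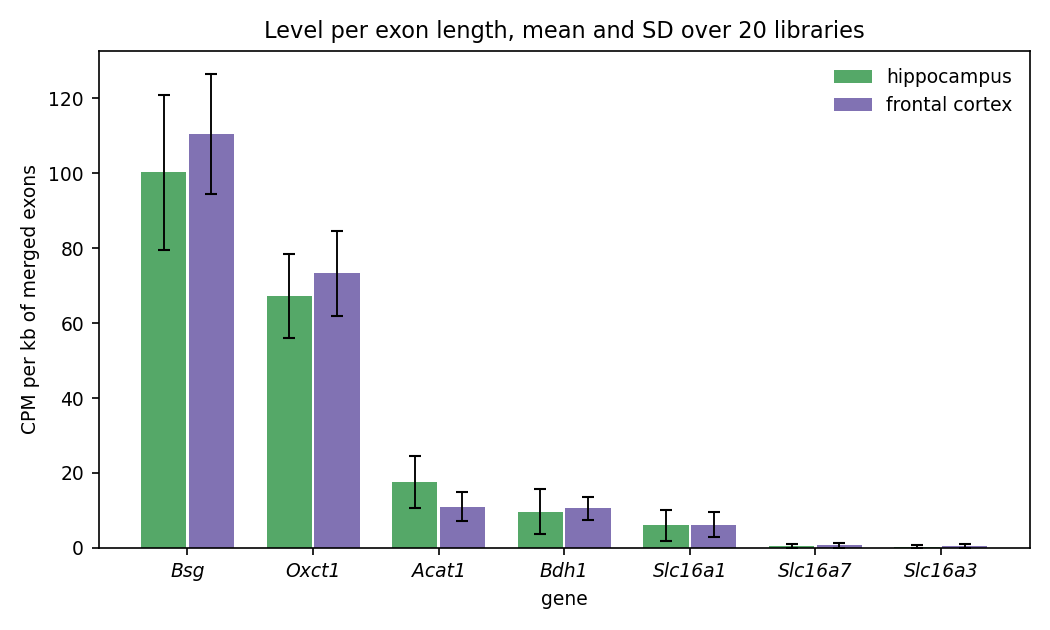
Level of each gene in CPM per kilobase of merged exons (vertical axis), by gene (horizontal axis) and region (bar colour), with bars at the mean and whiskers of 1 SD over 20 libraries, cut at 0 below. *Bsg* and *Oxct1* stand at 67.2 to 110.4 CPM per kb, *Acat1*, *Bdh1* and *Slc16a1* between 6.07 and 17.5, and *Slc16a7* and *Slc16a3* below 1.

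On GRCm38 (mm10), all 7 loci are protein coding. The enzymes lie on chromosome 16 from 31422280 to 31458901 (*Bdh1*, plus strand), chromosome 15 from 4026383 to 4155344 (*Oxct1*, plus strand) and chromosome 9 from 53580522 to 53610382 (*Acat1*, minus strand). The transporters lie on chromosome 3 from 104638668 to 104658462 (*Slc16a1*, plus strand), chromosome 10 from 125219270 to 125389465 (*Slc16a7*, minus strand) and chromosome 11 from 120948480 to 120960868 (*Slc16a3*, plus strand), and *Bsg* on chromosome 10 from 79704491 to 79711969 (plus strand). Exons of 3 of them share bases with a gene on the opposite strand, 533 for *Bdh1*, 467 for *Oxct1* and 179 for *Slc16a7*. Whether counting used strand is not given in the sources used here, and the partner of *Bdh1* held 21 counts over the 40 libraries against 2509 for *Bdh1*, that of *Oxct1* 112 against 16676. The partner of *Slc16a7* was not counted.

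Between post-KD and pre-KD recipients, 0 of the 7 genes passed an adjusted p under 0.05 in either region, where 0.0057% of 17529 hippocampal and 0.0056% of 17873 frontal cortical genes did (edgeR quasi-likelihood test, Benjamini-Hochberg adjustment over all genes). At an unadjusted p under 0.05 the count was also 0 of 7 in both regions, against 10.1% and 9.68% of all genes. How many genes reached that threshold depended strongly on the gene filter and the tool, so 0 of 7 is not read as fewer than among all genes. DESeq2 gave 0 of 7 adjusted calls in both regions as well, against 0% and 0.0112% of all genes, and at unadjusted p under 0.05 it gave 0 of 7 hippocampal and 2 of 7 frontal cortical calls, *Bdh1* and *Acat1*, against 3.42% and 4.62% of all genes. The members' median log2 change was -0.06 in the hippocampus, beside -0.01 for all genes tested, and -0.16 in the frontal cortex, beside 0.01. A transcript level in such tissue is a mean over all its cells, so that fewer cells of a type and less RNA per cell cannot be told apart.

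*Bdh1* carries out the first step of β-hydroxybutyrate use, and its estimates had opposite signs in the 2 regions. In the hippocampus it ran from 1.73 CPM through a median of 30.7 to 54.3 in pre-KD libraries and from 4.17 through 44.1 to 102 in post-KD libraries. The post-KD range contained the pre-KD range but for its lowest library, and 6 of 10 donors had the higher value post-KD. The change was 1.39-fold (95% interval 0.79 to 2.42, log2 0.47, SE 0.41, adjusted p = 0.972), and log2 0.54 without donors 9 and 10. Frontal cortical values ran from 28.1 through 50.9 to 60.4 CPM pre-KD and from 18.7 through 38.2 to 48.0 post-KD. There 0 of 10 post-KD libraries lay above the pre-KD median and 8 of 10 donors had the lower value post-KD, while 7 of 10 post-KD libraries still fell inside the pre-KD range. The frontal cortical change was 0.73-fold (0.51 to 1.04, log2 -0.45, SE 0.26, p = 0.0830, adjusted p = 0.653), with an unadjusted DESeq2 p of 0.0374 and an adjusted one of 0.998. Without donors 9 and 10 it was -0.47 on the log2 scale (adjusted p = 0.755).

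*Oxct1*, the rate-setting enzyme of ketone use outside the liver, was the most evenly measured enzyme. Its hippocampal values ran from 209 through 253 to 288 CPM pre-KD and from 133 through 234 to 325 post-KD. The frontal cortical values ran from 232 through 253 to 392 CPM pre-KD and from 220 through 265 to 301 post-KD. The conditions overlapped in both regions, and in each region 5 of 10 donors were higher post-KD and 5 lower. The change was 0.96-fold in both, with a 95% interval from 0.77 to 1.19 in the hippocampus (log2 -0.06, SE 0.16, adjusted p = 0.9998) and from 0.82 to 1.13 in the frontal cortex (log2 -0.06, SE 0.12, adjusted p = 0.998). These intervals were the narrowest among the 3 enzymes, and larger shifts in either direction lay outside them. Without donors 9 and 10 the estimates were -0.08 and -0.09 on the log2 scale.

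*Acat1*, the mitochondrial thiolase of the last step, ran from 33.7 through 61.5 to 104 CPM in pre-KD and from 28.4 through 65.2 to 108 in post-KD hippocampus. The conditions covered nearly the same range, and the change was 1.08-fold (0.73 to 1.60, log2 0.11, SE 0.28, adjusted p = 0.9998), with log2 0.08 when donors 9 and 10 were left out. Its frontal cortical values ran from 11.7 through 35.1 to 45.9 CPM pre-KD and from 22.8 through 48.8 to 72.3 post-KD. Here 8 of 10 post-KD libraries lay above the pre-KD median, 7 of 10 donors were higher post-KD, and 4 of 10 post-KD libraries fell inside the pre-KD range. *Oxct1* also had 8 of 10 post-KD libraries above its pre-KD median there, with an estimate of 0.96-fold. No share over all genes was taken for such counts. The frontal cortical change of *Acat1* was 1.37-fold (0.96 to 1.97, log2 0.46, SE 0.26, p = 0.0842, adjusted p = 0.656), with an unadjusted DESeq2 p of 0.0442 and an adjusted one of 0.998. Without donors 9 and 10 it was 0.59 on the log2 scale (p = 0.0516, adjusted p = 0.550). *Bdh1* and *Acat1*, of the first and last steps of the same route, thus had frontal cortical estimates of opposite sign, and neither passed the adjusted threshold.

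**Figure D2:**
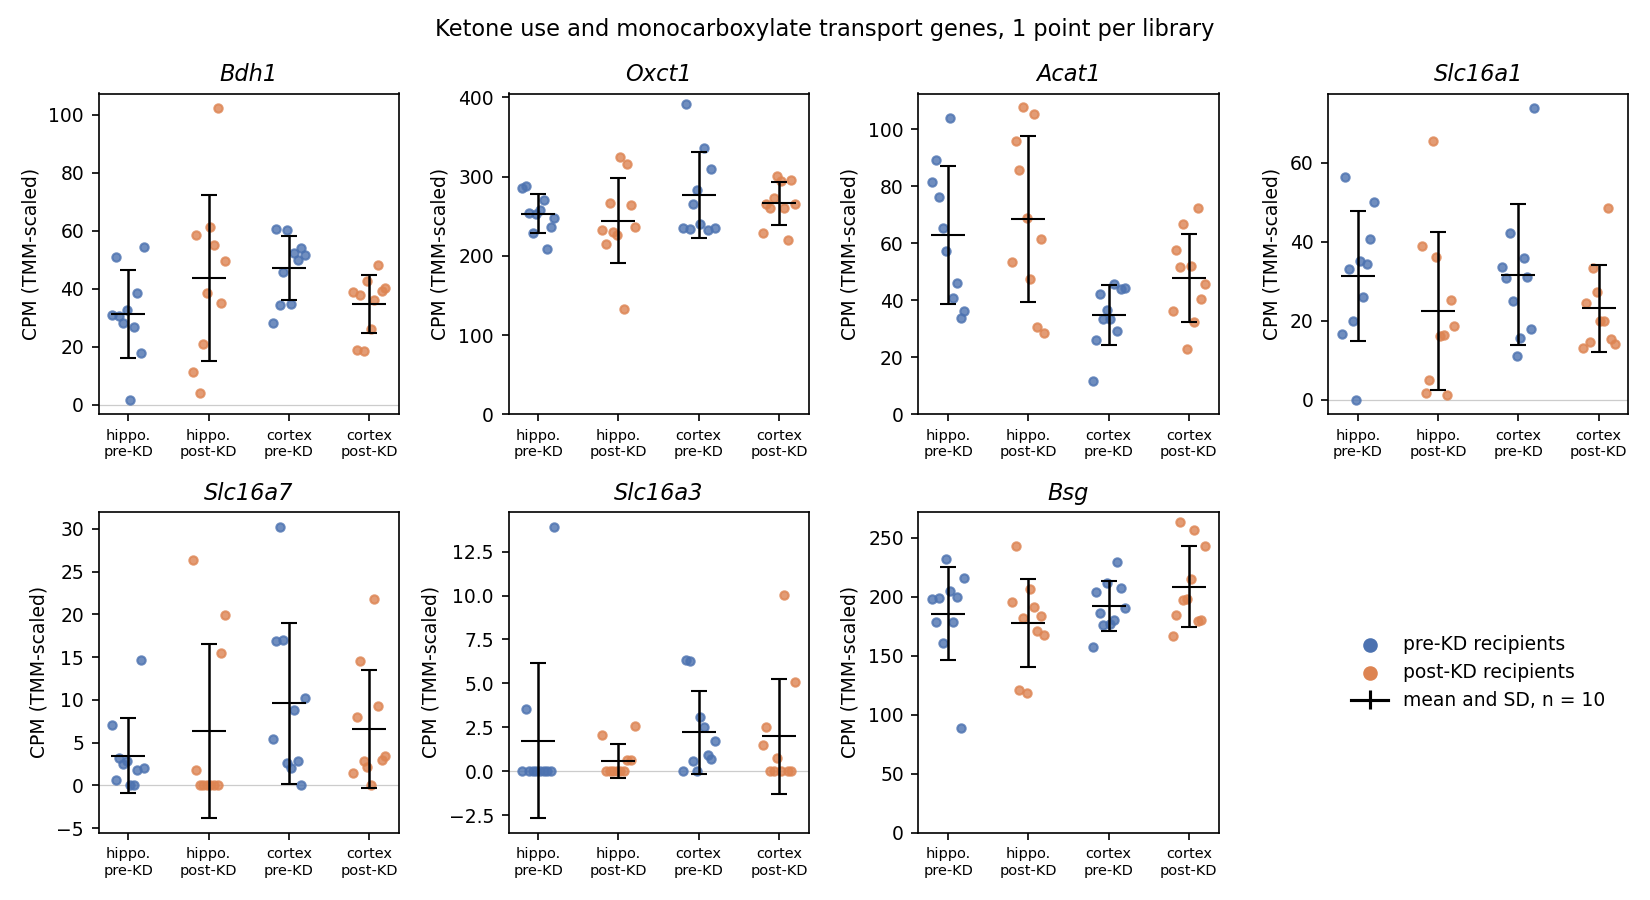
CPM after TMM scaling (vertical axis, starting from a separate range for each gene) in every library of the 4 groups (horizontal axis), 1 point per library, with black bars for the mean and whiskers of 1 SD over 10 libraries, which can reach below 0. Pre-KD and post-KD libraries overlap for every gene in both regions. The frontal cortical *Bdh1* points lie between 28.1 and 60.4 CPM pre-KD and between 18.7 and 48.0 post-KD.

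*Slc16a1* encodes MCT1, the transporter of brain endothelial cells and glia. It ran from 0 through 33.8 to 56.3 CPM in pre-KD and from 1.31 through 17.5 to 65.5 in post-KD hippocampus. The library at 0, of donor 5, allows up to 2.18 CPM. Frontal cortical values ran from 10.99 through 31.0 to 73.8 CPM pre-KD and from 13.1 through 20.02 to 48.6 post-KD. The groups overlapped fully in the frontal cortex, where 10 of 10 post-KD libraries lay inside the pre-KD range. The estimates were below 1 in both regions, 0.72-fold in the hippocampus (0.36 to 1.45, log2 -0.48, SE 0.51, adjusted p = 0.9998) and 0.73-fold in the frontal cortex (0.46 to 1.16, log2 -0.46, SE 0.34, adjusted p = 0.866), and lower values post-KD were seen in 7 of 10 and 6 of 10 donors. Without donors 9 and 10 the estimates were -0.30 and -0.16 on the log2 scale (adjusted p = 0.9999 and 0.996), and the highest pre-KD frontal cortical library was that of donor 10.

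*Slc16a7*, the MCT2 of neurons, had few counts. It ran from 0 through 2.29 to 14.6 CPM in pre-KD and from 0 to 26.4 with a median of 0 in post-KD hippocampus, with 2 of 10 and 6 of 10 libraries at 0, where a count of 0 allows up to 1.73 to 2.501 CPM. In the frontal cortex it ran from 0 through 7.13 to 30.3 CPM pre-KD and from 0 through 3.18 to 21.8 post-KD. All but 4 of the 10 post-KD hippocampal libraries held no count, and those of donors 1, 9 and 10 held 15.5 to 26.4 CPM. The changes were 1.80-fold in the hippocampus (0.35 to 9.23, log2 0.85, SE 1.19, adjusted p = 0.9998) and 0.69-fold in the frontal cortex (0.26 to 1.87, log2 -0.53, SE 0.72, adjusted p = 0.981), and both intervals were wide. Without donors 9 and 10 the estimates were 0.60 and -0.52 on the log2 scale. With a term for each donor, which compares the libraries as pairs, the hippocampal estimate of *Slc16a7* changed sign, to log2 -0.88 (SE 1.58).

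*Slc16a3*, the MCT4 of astrocytes, was the least abundant. In the hippocampus 14 of 20 libraries were at 0, with up to 13.9 CPM pre-KD and 2.58 post-KD, and in the frontal cortex 7 of 20 were at 0, with up to 6.32 CPM pre-KD and 10.02 post-KD. It summed to 35 counts in all 20 hippocampal and 72 in all 20 frontal cortical libraries. The changes were log2 -1.43 (SE 1.505) for the hippocampus and -0.16 (SE 1.17) for the frontal cortex, with adjusted p = 0.9998 and 0.998. Leaving out donors 9 and 10 gave -0.32 and -0.41, and in the hippocampus a term for each donor turned the sign to 0.34 (SE 1.252) and DESeq2 to 0.74. With errors of this size the fits bear on very large changes of *Slc16a3* only.

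*Bsg* ran from 89.1 through 199 to 232 CPM in pre-KD and from 119 through 183 to 243 in post-KD hippocampus. Its frontal cortical values ran from 158 through 189 to 229 CPM pre-KD and from 166 through 198 to 263 post-KD. The conditions overlapped in both regions, with 5 of 10 and 6 of 10 donors higher post-KD. The changes were 0.95-fold in the hippocampus (0.75 to 1.22, log2 -0.07, SE 0.18, adjusted p = 0.9998) and 1.08-fold in the frontal cortex (0.91 to 1.29, log2 0.12, SE 0.13, adjusted p = 0.965), and leaving out donors 9 and 10 gave -0.13 and 0.12 on the log2 scale.

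**Figure D3:**
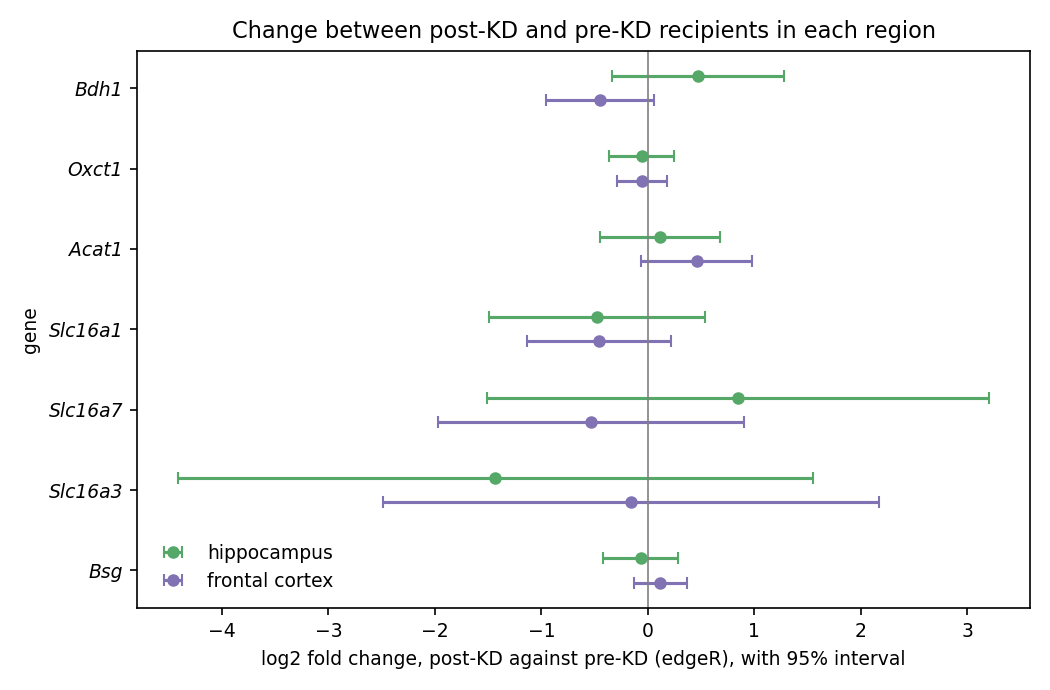
Log2 fold change of post-KD against pre-KD recipients from edgeR (horizontal axis) for each gene (vertical axis), with 95% intervals, in the hippocampus and the frontal cortex (colour), 10 libraries per condition. All 14 intervals include 0, from the narrowest, -0.29 to 0.18 for *Oxct1* in the frontal cortex, to the widest, -4.41 to 1.55 for *Slc16a3* in the hippocampus.

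The precision of each gene followed its counts only in part. *Oxct1* and *Bsg* averaged 382 and 283 counts per hippocampal library and varied over the 20 libraries by 16.5% and 20.7% of their means, where counting error alone would give 5.12% and 5.95%. *Bdh1* averaged 57.7 counts there and varied by 61.9%, against 13.2% from counting. *Slc16a1* averaged 42.4 counts and varied by 68.4%, against 15.4%. The variation of *Bdh1* was smaller in the frontal cortex, 29.8% against 12.2% from counting, while *Slc16a1* was at 54.99% against 14.9%. These spreads hold the differences between pools of mice besides counting error.

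Whether the change post-KD differed between the regions was tested with a term for each of the 20 cohorts. None of the 7 genes passed, at an adjusted p under 0.05 (0.0154% of 19422 genes) or an unadjusted one (2.22%), and DESeq2 gave 0 of 7 at each threshold, against 0% and 4.89%. The estimate farthest from 0 relative to its error was that of *Bdh1*, whose log2 change in the frontal cortex minus that in the hippocampus was -0.86 (SE 0.55, 95% interval -1.93 to 0.21, p = 0.115, adjusted p = 1). Without donors 9 and 10 it was -0.86 (p = 0.174). With 1 donor left out it ran from -1.19 to -0.46, with unadjusted p of 0.0374 and 0.0335 without donor 1 and donor 3 and an adjusted p of 1 in both.

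The regions themselves were compared within the 20 cohorts, since both tissues came from the same mice. By edgeR with a cohort term, 0 of 7 genes passed the adjusted threshold, against 2.85% of 19422 genes, and 2 of 7 had an unadjusted p under 0.05, against 10.9%. By DESeq2, 2 of 7 had an unadjusted p under 0.05, against 13.7%. The values of *Acat1* lay lower in the frontal cortex, without passing the adjusted threshold in this fit. They ran from 28.4 through 63.5 to 108 CPM over 20 hippocampal libraries and from 11.7 through 41.3 to 72.3 over 20 frontal cortical ones. The ranges overlapped, and 14 of 20 cohorts had the lower value in the frontal cortex, 7 of 10 in each condition. The frontal cortical level was 0.64-fold the hippocampal one (0.47 to 0.86, log2 -0.64, SE 0.22, p = 0.00368, adjusted p = 0.102). DESeq2 with the same terms called this difference (log2 -0.68, adjusted p = 0.0124), as did edgeR without the cohort term (-0.69, adjusted p = 0.0135) and edgeR without donors 9 and 10 (-0.85, adjusted p = 0.0238) or without donor 10 alone (-0.77, adjusted p = 0.0390). Beside it, choroid plexus markers were far higher in the hippocampal libraries, where the 6 genes summed to 489 to 4346 CPM against 6.98 to 591 in the frontal cortex, and *Ttr*, *Sostdc1*, *Folr1* and *Kl* had log2 differences of -4.72 to -4.13 in the frontal cortex against the hippocampus. The part of choroid plexus tissue in the difference of *Acat1* was not tested.

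*Slc16a7* was the other gene with an unadjusted p under 0.05. Its mean was 4.93 ± 7.79 CPM over hippocampal libraries and 8.13 ± 8.17 over frontal cortical ones (SD, n = 20), with 8 of 20 and 2 of 20 libraries at 0. It was higher in the frontal cortex in 13 cohorts, lower in 6 and at 0 in both regions in 1. The fit with a cohort term gave 4.13-fold (1.15 to 14.9, log2 2.05, SE 0.94, p = 0.0301, adjusted p = 0.370), and without that term 0.75 on the log2 scale (adjusted p = 0.700). It was 3.07 (adjusted p = 0.114) without donors 9 and 10. DESeq2 called it (log2 2.12, adjusted p = 0.0340). Of the 5 neuronal markers, *Rbfox3* and *Gad1* passed the adjusted threshold, 0.34 and 0.49 higher in the frontal cortex on the log2 scale (adjusted p = 3.42e-04 and 0.0178), *Snap25* and *Syt1* gave 0.20 and 0.07 (adjusted p = 0.0677 and 0.710), and *Slc17a7* gave -0.16 (adjusted p = 0.490). The part of neurons in the difference of *Slc16a7* was not tested. By DESeq2, 2 of 7 members passed the adjusted threshold, against 5.32% of all genes.

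**Figure D4:**
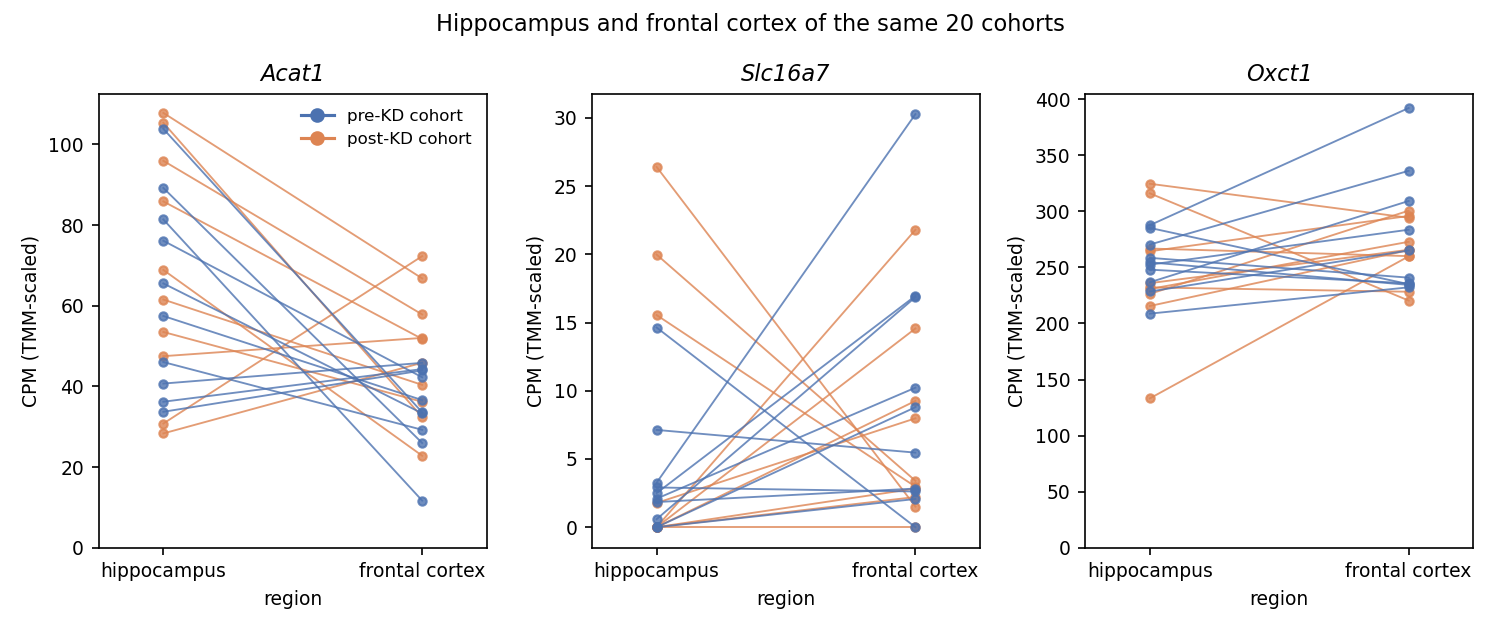
CPM after TMM scaling (vertical axis) in the hippocampus and frontal cortex (horizontal axis) of the same 20 cohorts, joined by lines, with pre-KD and post-KD cohorts in 2 colours, for *Acat1*, *Slc16a7* and *Oxct1*. *Acat1* is lower in the frontal cortex in 14 of 20 cohorts, *Slc16a7* higher in 13 of 20, and *Oxct1* higher in 12 of 20.

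The other 5 genes gave no call between regions. *Oxct1* was 1.09-fold (0.95 to 1.26, adjusted p = 0.728) and *Bsg* 1.11-fold (0.95 to 1.30, adjusted p = 0.705) in the frontal cortex against the hippocampus, each higher in 12 of 20 cohorts. *Bdh1* was 1.28-fold (0.88 to 1.85, adjusted p = 0.725) and *Slc16a1* 1.22-fold (0.76 to 1.96, adjusted p = 0.843). *Slc16a3* was 3.40-fold with an interval from 0.64 to 18.2 (adjusted p = 0.689). Leaving out donors 9 and 10 gave these 5 genes log2 differences of 0.11 to 2.57, with adjusted p from 0.559 to 0.836. The members' median log2 difference was 0.29, beside 0.17 for all genes tested.

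The levels of a gene in both regions of a cohort gave no correlation that passed its test. Over the 20 cohorts, after the mean of each condition was removed from log2 CPM, Pearson's r between regions ran from -0.32 for *Acat1* to 0.25 for *Slc16a3* over the 7 genes, with permutation p from 0.165 to 0.583 before any adjustment. Spearman's rho ran from -0.30 to 0.31, with permutation p from 0.183 to 0.731. Without the 2 cohorts farthest from the hippocampal median, r lay between -0.30 and 0.22. Among the 7 genes themselves, the 21 correlations over the 40 libraries, after removal of the mean of each region and condition, lay between -0.27 for *Bdh1* with *Acat1* and 0.35 for *Slc16a7* with *Slc16a3*, which share libraries at or near 0.

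The genes whose levels were most like those of each member over the 40 libraries are given as a description, over the 8156 or 8157 other genes averaging at least 20 counts. For *Bdh1* they were *Gm45902*, *Slc25a27* and *BC030499* (r = 0.69, 0.66 and 0.65), for *Oxct1* *Dclk2*, *Zfp703* and *Prickle1* (0.59, 0.58 and 0.57), and for *Acat1* *Igfbp4*, *Eepd1* and *Snrpd1* (0.61, 0.60 and 0.59). For *Slc16a1* they were *Lrp8*, *Camk2d* and *Prmt2* (0.72, 0.69 and 0.68), and for *Bsg* *Klhl8*, *Dhx57* and *Fam222b* (0.73, 0.72 and 0.70). *Slc16a7* was most like *9630010A21Rik*, *Immt* and *Itpk1* (0.64, 0.60 and 0.58) and *Slc16a3* most like *Ppp2r5a*, *Swi5* and *0610030E20Rik* (0.67, 0.55 and 0.49). No member stood in the list of another. The points share libraries and depth, and values so high are partly the outcome of picking the top of a long list.

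Genes around these steps were taken from 6 lists of 40 genes, of which 30 could be tested between hippocampal conditions, 31 between frontal cortical ones and 35 between regions. Between conditions 0 of them passed the adjusted threshold in either region by edgeR. In the hippocampus 3 of 30 had an unadjusted p under 0.05, all lower post-KD, and in the frontal cortex 4 of 31 did, 3 higher and 1 lower. These shares lie near those over all genes, 10.1% and 9.68%, which depended strongly on the gene filter and the tool. The median log2 change of the genes tested was 0.00 for the hippocampus and 0.10 for the frontal cortex, beside -0.01 and 0.01 for all genes. Of these 7, *Slc16a9*, *Slc16a13*, *Slc16a8* and *Slc16a12* are named because of their values. In the hippocampus the carnitine and urate carrier *Slc16a9* summed to 118 counts pre-KD and 11 post-KD, at 0 in 2 of 10 and 7 of 10 libraries (log2 -3.17, SE 1.31, p = 0.0176, adjusted p = 0.246). The orphan transporter *Slc16a13* had 10 and 0 counts, at 0 in 7 of 10 and 10 of 10 libraries. Its adjusted edgeR p of 0.081 was the smallest among the hippocampal list genes and rests on these few counts. The lactate receptor *Hcar1* had 66 and 6 counts, at 0 in 5 of 10 and 8 of 10 libraries, with 1 pre-KD library at 25.5 CPM beside a group mean of 4.10. In the frontal cortex *Slc16a8*, the MCT3 of pigment epithelia, had its 21 counts in 1 post-KD library, and the creatine carrier *Slc16a12* had 16 counts pre-KD and 1 post-KD, at 0 in 8 of 10 and 9 of 10 libraries. By DESeq2, 2 of the 30 list genes had an unadjusted p under 0.05 in the hippocampus, *Slc16a9* (0.00577) and *Slc16a11* (0.0340), and 2 of the 31 in the frontal cortex, *Ldhb* and *Hif1a*. The DESeq2 shares over all genes were 3.42% and 4.62%. *Slc16a11*, also named because of its value, had 246 counts pre-KD and 99 post-KD in the hippocampus (edgeR log2 -1.27, SE 0.82, p = 0.123).

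Among the lactate and pyruvate genes, *Ldhb*, the lactate dehydrogenase subunit that favours the formation of pyruvate, ran at 211 ± 33.8 CPM in pre-KD and 259 ± 37.2 in post-KD frontal cortex (SD, n = 10), a log2 difference of 0.29 (SE 0.12, p = 0.0191, adjusted p = 0.294), and at 165 ± 43.3 and 184 ± 48.3 in the hippocampus (0.15, SE 0.18, adjusted p = 0.9998). *Ldha*, the other subunit, gave -0.11 (SE 0.15) and -0.04 (SE 0.21). Between regions 1 of the 35 genes tested from the 6 lists passed, a share like the 2.85% of all genes. It was *Ldhb*, 0.45 higher in the frontal cortex on the log2 scale (SE 0.11, adjusted p = 0.00286), at 235 ± 42.5 CPM against 174 ± 45.7 (n = 20). Among the partners of the transporters, neuroplastin (*Nptn*) ran at 356 ± 54.9 against 293 ± 59.5 CPM (0.29, SE 0.09, adjusted p = 0.0583, DESeq2 adjusted p = 0.0373), and embigin (*Emb*), the partner of MCT2, at 12.1 ± 9.24 against 16.4 ± 12.4 (-0.43, SE 0.55, adjusted p = 0.856).

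Among enzymes of ketone synthesis and cytosolic use the highest was the cytosolic thiolase *Acat2*, at 28.3 ± 19.3 CPM for the hippocampus and 33.5 ± 9.56 for the frontal cortex. Of the 8 genes of this list, 5 could be tested between hippocampal libraries and 6 between frontal cortical ones, with 0 at an unadjusted p under 0.05. Among the other 13 monocarboxylate transporters, *Slc16a6*, a carrier that can export ketone bodies from liver, ran at 15.7 ± 9.81 and 25.4 ± 13.1 CPM, with log2 changes post-KD of 0.34 (SE 0.67, adjusted p = 0.9998) and 0.25 (SE 0.39, adjusted p = 0.992). The receptors for β-hydroxybutyrate and short-chain acids *Hcar2* and *Ffar3*, the testis forms *Oxct2a* and *Oxct2b* and the hormone gene *Fgf21* held 0 counts in all 40 libraries, which allows up to 2.83 CPM in each. Among 8 regulators, *Ppargc1a*, the coactivator of mitochondrial genes, ran at 81.6 ± 23.1 and 88.5 ± 27.2 CPM with log2 changes post-KD of 0.03 (SE 0.25) and -0.17 (SE 0.20), and *Hif1a*, a factor of the response to low oxygen, had log2 changes of -0.18 (SE 0.37, p = 0.633) and 0.57 (SE 0.27, p = 0.0386, adjusted p = 0.450).

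Markers of the cells that carry these proteins gave no call between conditions. In the hippocampus the 7 endothelial markers summed to 149 to 255 CPM pre-KD and 104 to 235 post-KD, the 6 astrocyte markers to 767 to 1002 and 601 to 984, and the 5 neuronal markers to 3342 to 4530 and 3601 to 4183. In the frontal cortex the endothelial sums were 182 to 341 and 126 to 321 CPM, the astrocyte sums 696 to 992 and 676 to 1013, and the neuronal sums 3948 to 4853 and 3720 to 4557. Of the endothelial, astrocyte and neuronal markers 0 had an unadjusted p under 0.05 in either region, and 1 of 5 oligodendrocyte markers (*Mog*, named because of its value, log2 0.90, adjusted p = 0.441), 0 of 5 microglial and 0 of 6 choroid plexus markers did in the hippocampus, with 0 of each in the frontal cortex. Of the 6 hippocampal markers 1 did in the hippocampus (*Prox1* of the dentate gyrus, named because of its value, log2 -0.57, p = 0.0256, adjusted p = 0.324, DESeq2 p = 0.0122) and 0 in the frontal cortex, and of the 6 cortical markers 0 did in either region. *C1ql2*, also of the dentate gyrus, gave 0.78 in the hippocampus (p = 0.153, DESeq2 p = 0.0477), and the median of the 6 hippocampal markers there was 0.12. The part of the subfields sampled in the hippocampal estimates was not tested. Of 3 blood genes tested in the frontal cortex, 2 (*Hba-a1* and *Hbb-bs*) were higher post-KD at unadjusted p (log2 0.49 and 0.41, adjusted p = 0.122 and 0.136), with blood sums of 387 to 1143 CPM pre-KD and 547 to 1375 post-KD. The part of blood in the frontal cortical estimates of *Bdh1* and *Acat1* was not tested. Between regions 2 of 5 neuronal, 1 of 6 astrocyte (*S100b*, 0.41 higher in the frontal cortex), 5 of 6 choroid plexus, 4 of 6 hippocampal and 3 of 6 cortical markers passed the adjusted threshold, and 0 of the endothelial, oligodendrocyte, microglial, blood and Y-linked ones.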

How the data were processed

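Per the labels and methods, the authors trimmed paired reads of 69 bp, aligned them to mm10 with STAR 2.5.2a and counted them per gene with HTSeq 0.6.0, and they deposited unnormalized counts of 47643 Ensembl genes in 1 table per region. The annotation release is not given in the sources used here, and 47224 identifiers were matched to GENCODE M21 for symbols, positions and exon lengths. CPM were computed from TMM-scaled library sizes. Every gene that reached 10 counts in sum entered the quasi-likelihood test of edgeR 4.0.16 (R 4.3.3), run in each region alone for the diet conditions and over 40 libraries with a term for each cohort between regions. Benjamini-Hochberg adjustment ran over every gene tested. Alternatives were DESeq2 1.42.0, no gene filter, filterByExpr, RLE size factors, the donor or no cohort block, a Y-linked covariate and leaving out each donor. Leaving out donors 9 and 10 together was chosen after seeing the data. Permutation tests used 100000 resamples (Python 3.11.15, scipy 1.17.1), log2 CPM a prior count of 2, and figures matplotlib 3.10.9. The procedure was tested on simulated data, in which changes were set only in genes of higher levels than *Slc16a7* and *Slc16a3*, so that test does not cover these genes.

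The members and the gene lists (6 of the pathway and lists of endothelial, astrocyte, neuronal, oligodendrocyte, microglial, choroid plexus, blood, hippocampal, cortical and Y-linked markers) were chosen with earlier results of these data known. Besides the members, the rule names list genes called at adjusted p under 0.05, at most 4 a list, the 2 of each list with the highest mean CPM, and the 3 genes most correlated with each member. Of the list genes so named, 2 are not reported here. Numbers pair the libraries because pre-KD and post-KD samples came from 1 donor, and both regions from the same mice. Over 8157 genes averaging at least 20 counts, deviations from the group means of paired pre-KD and post-KD libraries had hippocampal correlations of -0.030 to 0.027 and frontal cortical ones of -0.047 to 0.032, and those of both regions of a cohort between -0.02 and 0.20, with 1 of 20 above 0.1.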

Additional observations from a re-analysis of the deposited data

Results flagged for a closer look

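In 5 of 28 groups of 10 libraries (7 genes in 4 groups) the highest or lowest library stood apart from the other 9 by Dixon's test. Chance gives about 1 group in 20 where values are normally distributed, which does not hold for *Slc16a7* and *Slc16a3* with libraries at 0, so the number of groups is not read against that rate. *Slc16a1* reached 73.8 CPM in the pre-KD frontal cortex of donor 10, with the others at 10.99 to 42.3. *Slc16a7* reached 14.6 CPM in the pre-KD hippocampus of donor 9, with the others at 0 to 7.13. *Slc16a3* reached 13.9 CPM in the pre-KD hippocampus of donor 10, with the others at 0 to 3.52, and 10.02 CPM in the post-KD frontal cortex of donor 7, with the others at 0 to 5.10. *Bsg* fell to 89.1 CPM in the pre-KD hippocampus of donor 9, with the others at 161 to 232. The gap took up 0.502, 0.513, 0.747, 0.491 and 0.503 of the range of its group. The pre-KD hippocampal library of donor 9 stood apart for both *Slc16a7* and *Bsg*, so that the 5 values came from 4 libraries, 3 of them of donors 9 and 10, whose libraries carried counts on Y-linked genes.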

How the results depend on the processing

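Between conditions 0 of the 7 genes passed the adjusted threshold under any of the 17 alternatives in either region. Over all genes, adjusted calls in the hippocampus went from 1 to 0 with DESeq2, filterByExpr and the replicate block and to 1291 with no filter. They numbered 0 to 1 over the fits with 1 donor left out. Unadjusted calls went from 1762 to 599 with DESeq2, 221 with filterByExpr, 348 with the block and 2931 with no filter. In the frontal cortex adjusted calls went from 1 to 2 with DESeq2 and 3 with the replicate block, and unadjusted ones from 1731 to 825 with DESeq2, 407 with filterByExpr, 548 with the block and 3035 with no filter. Members at unadjusted p numbered 2 there with DESeq2 and 0 to 1 when 1 donor was left out (1 without donor 1 or 7). The block turned the hippocampal log2 change of *Slc16a7* to -0.88 and that of *Slc16a3* to 0.34, and DESeq2 that of *Slc16a3* to 0.74. It changed no call of a member. With 1 donor left out, signs turned within -0.12 to 0.033 for *Oxct1*, -0.024 to 0.28 for *Acat1* and -0.15 to 0.022 for *Bsg* in the hippocampus, and -0.098 to 0.0073 for *Oxct1* and -0.96 to 0.31 for *Slc16a3* in the frontal cortex. Between regions, members called numbered 2 with DESeq2, 1 with no replicate block, 1 without donors 9 and 10, and 0 to 1 with 1 donor left out (1 without donor 10). Those at unadjusted p numbered 1 with no block and 1 to 2 with 1 donor left out. All genes called numbered 1033 with DESeq2 and 1935 with no block, against 554, and 3475 against 2117 at unadjusted p with no block. For the difference between regions in the change, all genes called went from 3 to 0 with DESeq2, to 348 with no block and to 2 to 4 with 1 donor left out, and unadjusted ones from 431 to 949 and 1767. With no block the estimates turned to -0.0042 for *Oxct1*, -1.38 for *Slc16a7* and 1.27 for *Slc16a3*. With 1 donor left out they spanned -0.017 to 0.12 for *Oxct1*, -0.24 to 0.58 for *Slc16a1* and -0.48 to 1.32 for *Slc16a7*, and 0 to 1 members had an unadjusted p under 0.05 (*Bdh1*). The cause of these shifts was not tested. The correlations between regions kept their sign and stayed short of the threshold under RLE size factors and a prior count of 0.5. *Slc16a7* and *Slc16a3* were at 0 in 8 and 14 of 20 hippocampal libraries, where a count of 0 does not show absence. Intervals cover the spread between libraries, which holds counting error and differences between pools of mice, and not the spread between mice of 1 pool.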
